A study of Homo sapiens and Mus musculus with 8 samples.

Results

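The HOX cluster genes are the 39 protein-coding members of the HOXA, HOXB, HOXC and HOXD clusters, chosen by name from the 60483 genes of the deposited count table. On GRCh38 (GENCODE release 29 coordinates) the HOXA genes from HOXA2 to HOXA13 lie on the minus strand of chromosome 7 at 27100354 to 27200106, and the 10 HOXB genes on the minus strand of chromosome 17 at 48528526 to 48729178. The 9 HOXC genes lie on the plus strand of chromosome 12 at 53938765 to 54056030, and the 9 HOXD genes on the plus strand of chromosome 2 at 176092891 to 176190907. RNA was sequenced from KM12 and LS174T, a pair of established human lines of colorectal cancer, each sampled in culture and as a CDX tumor, that is, a xenograft grown from the line in a host animal. KM12 was sequenced as the parental line, which carries GNAS R201H, and as a GNAS knock-out of it. LS174T libraries all carried the label GNAS R201H and were either Dox (-) or Dox (+), where Dox stands in the labels without a statement of what it induces. GNAS encodes the stimulatory G protein alpha subunit, R201H is an activating mutation of it, and the series title names dependence of tumors on the mutant gene as its subject.

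HOX genes encode homeodomain transcription factors that give cells along the body axis their positional identity, and they sit in their clusters in the order in which they are used from head to tail. Low-numbered paralogs act anteriorly and high-numbered ones posteriorly, so that the lining of the colon is known for posterior members such as HOXA13 and HOXB13. PBX and MEIS proteins bind DNA with HOX proteins, Polycomb proteins hold silent clusters closed, trithorax proteins keep active ones open, and retinoic acid and CDX factors act on the clusters upstream.

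Each of the 8 groups holds 1 library, so a difference between any single pair of libraries has no replicate check, and p-values from the fits over pairs measure only the spread between pairs. Libraries held between 15924846 and 37735085 counts, and each xenograft held fewer than each culture. GNAS itself was at 1119 CPM (counts scaled to a common library size) in the KM12 parental culture and 298 in the knockout culture, and at 1390 and 903 in the matching xenografts, lower in the knockout both times but by less in the xenografts. In LS174T, GNAS was at 691 CPM in the Dox (-) culture and 1746 in the Dox (+) culture, and at 586 and 691 in the xenografts, again higher in Dox (+) both times but by less in the xenografts. All 8 markers of colorectal epithelium, EPCAM and CDH1 among them, had counts in every library, although their levels differed between libraries. The KM12 parental xenograft stood apart, as its fibroblast markers summed to 264 CPM against 3.64 to 12.8 CPM in the other 7 libraries. The scaling used trimmed means of M values (TMM). Levels of different genes are compared only as CPM per kilobase of exon (CPM per kb). In lists of values, the KM12 parental library precedes the knockout and LS174T Dox (-) precedes Dox (+).

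In sum the HOX genes took between 4321 and 12883 counts a library. Between 35 and 36 of the 39 members had at least 1 count in a KM12 library, against 22 to 26 in an LS174T library. HOXB1 and HOXD11 had no count in any library, and 10 members had none in any of the 4 LS174T libraries. Of the 39, 30 reached 1 CPM before scaling in at least 2 libraries and were tested, 15 of them through KM12 libraries alone. Of the tested members 5 had no count in LS174T, all of them among those 15, against 0.373% of all tested genes. The 9 members left untested were HOXB1, HOXB2, HOXC5, HOXC9, HOXC12, HOXD10, HOXD11, HOXD12 and HOXD13. Their highest level in any library was 2.06 CPM, that of HOXC9 in the KM12 parental xenograft.

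**Figure D1:**
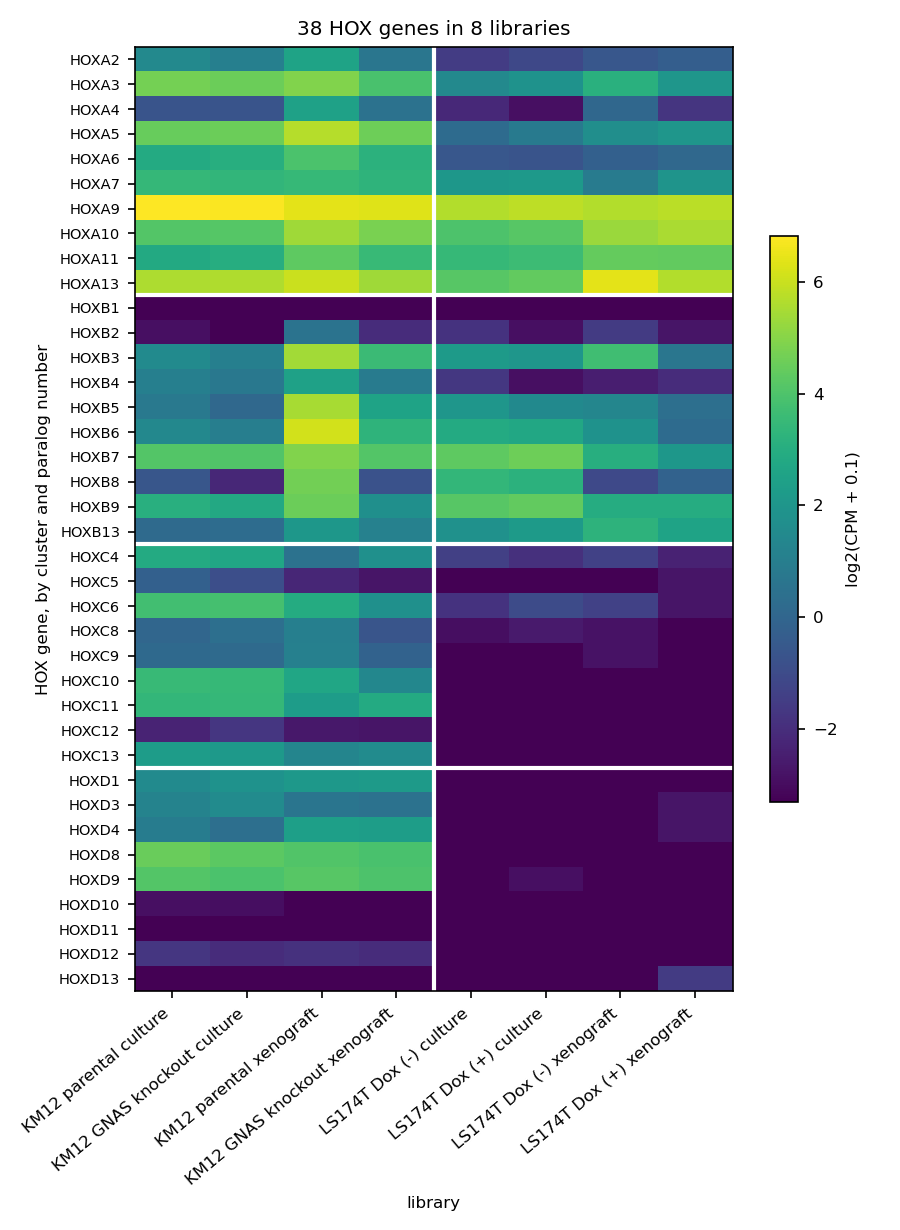
Level of 38 HOX genes (rows, by cluster and paralog number, clusters parted by white horizontal lines) in each of the 8 libraries (columns, lines parted by a white vertical line), as log2 of CPM plus 0.1 on the color scale. HOXC and HOXD rows are at or near the lowest color in the 4 LS174T columns, while HOXA9 is bright in all 8.

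Per length of exon, HOXA9 was the leading HOX gene in 6 of the 8 libraries, at 37.6 CPM per kb in the KM12 parental culture, 36.4 in the knockout culture and 26.8 in the knockout xenograft, and at 16.9, 18.6 and 17.9 in the LS174T Dox (-) culture, Dox (+) culture and Dox (+) xenograft. In the KM12 parental xenograft the order was HOXA5 at 30.5 CPM per kb, HOXA9 at 28.5, HOXB6 at 26.6 and HOXB5 at 22.4. In the LS174T Dox (-) xenograft HOXA13 at 16.8 CPM per kb and HOXA9 at 16.4 were nearly level. These lengths include exon sequence shared with other annotated genes, 27% for HOXA9, 32.9% for HOXB6, 1.69% for HOXA13 and 0% for HOXA5. How reads in shared sequence were counted is not given, so the order of close values is uncertain. After HOXA9 the cultures of the lines diverged: KM12 cultures had HOXA5 next, at 13.1 and 13.7 CPM per kb, and LS174T cultures HOXB7, at 12.9 and 15.6.

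The question of how far the 2 lines differ was asked with edgeR over 4 pairs matched for environment and GNAS state (KM12 parental with LS174T Dox (+), knockout with Dox (-)). Of the 30 members tested, 19 were lower in LS174T and 1, HOXB13, was higher at an adjusted p below 0.05. Over all 16070 genes tested 31.5% passed, 14.8% as lower and 16.7% as higher. The 19 lower members were all 6 tested HOXC genes, all 5 tested HOXD genes, HOXB4 and, for the rest, HOXA genes. Of the 19, 14 were among the 15 members that reached the minimum in KM12 libraries alone. The 15 include all 6 tested HOXC genes, all 5 tested HOXD genes, HOXA2 and HOXB4. For these 15 the filter favors a difference, although HOXA4, also among them, did not pass. The count of 19 is therefore no support for a difference of the whole family. Among the other 15 tested members, 5 were lower (HOXA3, HOXA5, HOXA6, HOXA7 and HOXA9) and 1 higher. Each KM12 library lay above each LS174T library for 23 of the 39 members and for 19 of the 30 tested. This arrangement was seen in 14.5% of all tested genes. Of those 19 tested members, 14 reached the minimum in KM12 libraries alone, which favors the arrangement, and 5 were among the other 15. No member had the opposite arrangement, seen in 15.2% of all tested genes. In bulk RNA, fewer cells of a kind and less RNA per cell cannot be told apart.

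The HOXD cluster was close to silent in LS174T: its 9 genes summed to 0, 1, 0 and 7 counts in the Dox (-) culture, Dox (+) culture, Dox (-) xenograft and Dox (+) xenograft, 8 in all, against 4476 in the 4 KM12 libraries. In KM12 the HOXD sum held to a narrow band of 46.6 and 42.5 CPM in the cultures and 46.3 and 41.9 in the xenografts. HOXD8, a central member, was at 22.5 and 19.5 CPM in KM12 cultures and 16.9 and 15.1 in KM12 xenografts, and had no count in LS174T. Against a floor of 3 counts a library, HOXD8 was at least 116-fold to 226-fold lower in LS174T over the 4 pairs (adjusted p = 0.00509). All 5 tested HOXD genes reached the minimum in KM12 libraries alone, which favors such a difference, so their adjusted p values add no support. HOXD9 was at 17.1 and 15.2 CPM in KM12 cultures and 18.3 and 15.9 in KM12 xenografts, with 1 count in the 4 LS174T libraries together (log2 difference -10.23 ± 0.60 SE, adjusted p = 0.000529). HOXD4 was at 1.82 and 1.2 CPM in KM12 cultures and 5.27 and 4.9 in KM12 xenografts, again with 1 count in LS174T (log2 -7.77 ± 0.69, adjusted p = 0.0016). HOXD8 and HOXD9 share no exon sequence with another annotated gene, but 80.5% of the exon length of HOXD4 is shared with the annotated gene AC009336.2, and 74.1% of that of HOXD3 with AC009336.2, HAGLR and other genes, and 58.1% of that of HOXD1 mostly with the antisense gene HAGLR. The library kit did not mark the strand, so counts of those 3 members are uncertain. HOXD1, the most anterior HOXD gene, ranged from 2.79 to 4.56 CPM in KM12 with no count in LS174T (adjusted p = 0.0116), and HOXD3 from 1.31 to 2.87 CPM with 1 count (log2 -7.12 ± 0.87, adjusted p = 0.00385).

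The HOXD genes from HOXD10 to HOXD13, at the posterior end of the cluster, were at or near 0 in both lines. HOXD10 had 2 counts and HOXD12 17 counts over the 4 KM12 libraries, with none in LS174T. HOXD13, the most posterior and a hindgut and limb gene, had no count in 7 libraries and 5 counts (0.242 CPM) in the LS174T Dox (+) xenograft.

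The HOXC cluster showed the same division between lines. All 6 tested HOXC genes also reached the minimum in KM12 libraries alone, so their adjusted p values for line add no support. Its sum was 50.1 and 49.3 CPM in KM12 cultures and 26.4 and 20.7 in KM12 xenografts, against 0.491, 0.63, 0.651 and 0.194 CPM in the 4 LS174T libraries (16, 19, 16 and 4 counts). HOXC6, a central member, was at 13.4 and 14.1 CPM in KM12 cultures, 7.39 and 3.35 in KM12 xenografts, 0.184 and 0.398 in LS174T cultures and 0.285 and 0.0485 in LS174T xenografts (log2 difference LS174T minus KM12 -5.30 ± 0.64, adjusted p = 0.0037). HOXC10 was at 11.4 and 11.1 CPM in KM12 cultures and 6.36 and 2.52 in KM12 xenografts, with no count in LS174T, a difference of at least 20.7-fold to 120-fold over the pairs (adjusted p = 0.00834). HOXC11 was at 10.5 and 10.7 CPM in KM12 cultures and 4.76 and 7.18 in KM12 xenografts, also without a count in LS174T (at least 32.7-fold to 116-fold, adjusted p = 0.00808). These posterior HOXC genes are used in trunk and limb rather than in head. HOXC13, known for its role in hair and nail, ranged from 2.35 to 4.75 CPM in KM12 and had no count in LS174T (at least 16.2-fold to 47.7-fold lower, adjusted p = 0.012). HOXC4, the most anterior of the cluster, was at 7.29 and 6.27 CPM in KM12 cultures, 1.32 and 3.3 in KM12 xenografts, 0.276 and 0.166 in LS174T cultures and 0.285 and 0.097 in LS174T xenografts. HOXC8 ranged from 0.534 to 2.01 CPM in KM12 with 4 counts in LS174T (log2 -4.71 ± 0.74, adjusted p = 0.00809). The remaining HOXC5, HOXC9 and HOXC12 stayed at or below 2.06 CPM throughout, with 1, 1 and 0 counts in LS174T.

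Among the HOXA genes, HOXA2, HOXA3, HOXA5, HOXA6, HOXA7 and HOXA9 were called lower in LS174T, while HOXA4, HOXA10, HOXA11 and HOXA13 did not pass. HOXA5, a central member that is also used in lung and gut, was at 22.3 and 23.4 CPM in KM12 cultures, 52.1 and 24 in KM12 xenografts, 1.07 and 1.69 in LS174T cultures and 3.17 and 3.98 in LS174T xenografts, a difference of -3.69 ± 0.30 on the log2 scale (adjusted p = 0.00124). HOXA6 followed it, with 7.22, 8.11, 15.2 and 9.17 CPM in the KM12 cultures and xenografts against 0.583, 0.53, 0.773 and 0.97 in the LS174T ones (log2 -3.77 ± 0.26). HOXA3, active in the head and neck region of the embryo, was at 26 and 23.2 CPM in KM12 cultures and 29.5 and 14.8 in KM12 xenografts, and at 2.64, 3.48, 8.54 and 3.93 in LS174T. The groups did not overlap for any of these 3 genes. HOXA2, a hindbrain gene, was at 2.61 and 1.96 CPM in KM12 cultures, 5.85 and 1.5 in KM12 xenografts and between 0.246 and 0.728 CPM in LS174T. HOXA7 was at 10.8 and 10.1 CPM in KM12 cultures, 11.1 and 9.71 in KM12 xenografts, 4.05 and 4.44 in LS174T cultures and 1.79 and 3.73 in LS174T xenografts. The log2 differences of HOXA2 and HOXA7 were -2.56 and -1.64, with adjusted p of 0.00919 and 0.0114, and 62.5% of the exon length of HOXA7 is shared, mostly with the antisense gene HOXA-AS3.

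HOXA4, an anterior gene, had a log2 difference of -2.57 (adjusted p = 0.0679), and its groups overlapped, with 0.936 CPM in the LS174T Dox (-) xenograft against 0.516 CPM in the KM12 parental culture. HOXA9, a posterior gene best known from leukemia, was at 114 and 110 CPM in KM12 cultures, 86.2 and 81.2 in KM12 xenografts, 51.1 and 56.4 in LS174T cultures and 49.8 and 54.2 in LS174T xenografts, lower in LS174T in all 4 pairs with no overlap between the lines (log2 -0.87 ± 0.13, adjusted p = 0.00674). HOXA10, HOXA11 and HOXA13, the most posterior of the cluster, had log2 differences of 0.16 ± 0.15, 0.56 ± 0.20 and -0.50 ± 0.43 and adjusted p of 0.469, 0.0868 and 0.417. HOXA11 passed it with DESeq2 (adjusted p = 0.029).

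HOXB13, used in distal colon and prostate, was the only member called higher in LS174T in the fit over all 4 pairs. It stood at 1.03 and 1.11 CPM in KM12 cultures, 4.07 and 2.09 in KM12 xenografts, 3.44 and 4.47 in LS174T cultures and 9.48 and 5.87 in LS174T xenografts. It was higher in LS174T in all 4 pairs, although the KM12 parental xenograft overlapped the LS174T range (log2 1.61 ± 0.38, adjusted p = 0.027). In each of the 2 culture pairs, 7 of the 8 tested HOXB genes were higher in LS174T. Their median log2 ratios were 1.03 (Dox (+) to parental) and 1.48 (Dox (-) to knockout), beside 0 and -0.006 over all tested genes. In the matching xenograft pairs 1 and 3 of the 8 were higher. Without the parental and Dox (+) cultures, the knockout and Dox (-) cultures or the knockout and Dox (-) xenografts, the adjusted p of HOXB13 was 0.0978, 0.0828 and 0.0778. HOXA3 lost its call in the same way, without the parental and Dox (+) cultures or xenografts (adjusted p = 0.0509 and 0.0581). Of the 20 called members, 17 passed under each alternative in which they were tested.

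**Figure D2:**
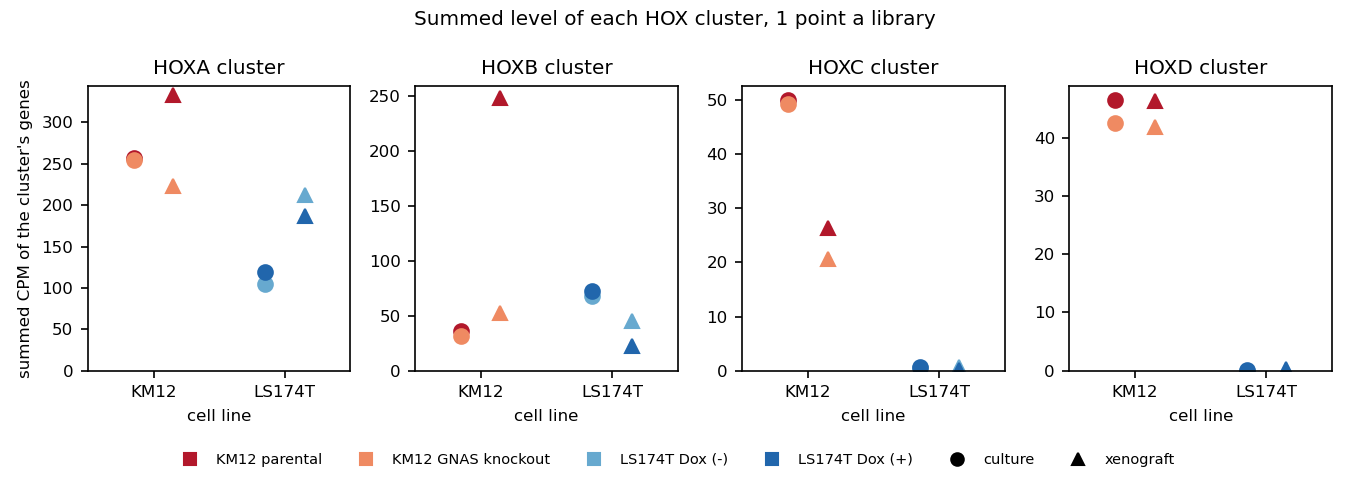
Summed CPM of the genes of each HOX cluster (vertical axis, a linear scale from 0 that differs between panels) in KM12 and LS174T (horizontal axis), with 1 point per library, circles for cultures and triangles for xenografts. HOXC and HOXD points of LS174T lie at or near 0, and the KM12 parental xenograft stands at 248 CPM in the HOXB panel, above the other 7 libraries at 22.5 to 72 CPM.

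The promoters of 3 members are shown, those of the members chosen by rule for which RefSeq (GRCh38.p14) lists a start. HOXA9 and HOXD8 reached the highest CPM of their clusters in any library. HOXA13 passed the test of a difference between lines in the environment effect. The 250 bases before each start, read 5′ to 3′, are given with motif matches in capitals. HOXA9 lies at chr7:27165538-27165787 (minus strand), HOXD8 at chr2:176129455-176129704 (plus strand) and HOXA13 at chr7:27200092-27200341 (minus strand).
HOXA9: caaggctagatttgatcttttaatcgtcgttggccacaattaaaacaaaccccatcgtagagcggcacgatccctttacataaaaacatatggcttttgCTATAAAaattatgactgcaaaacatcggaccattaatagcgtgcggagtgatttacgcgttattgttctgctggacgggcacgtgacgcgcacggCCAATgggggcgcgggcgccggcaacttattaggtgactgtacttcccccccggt
HOXD8: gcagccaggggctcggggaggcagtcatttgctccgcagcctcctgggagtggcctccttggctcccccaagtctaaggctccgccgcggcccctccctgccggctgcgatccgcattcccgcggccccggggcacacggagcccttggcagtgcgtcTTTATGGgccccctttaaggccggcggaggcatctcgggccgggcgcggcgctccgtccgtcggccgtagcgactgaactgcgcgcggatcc
HOXA13: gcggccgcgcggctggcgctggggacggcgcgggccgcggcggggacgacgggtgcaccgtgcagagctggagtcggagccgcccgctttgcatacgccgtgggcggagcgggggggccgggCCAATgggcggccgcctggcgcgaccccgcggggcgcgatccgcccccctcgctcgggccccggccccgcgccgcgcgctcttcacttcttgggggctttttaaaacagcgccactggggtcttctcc
The HOXA9 window, of the gene on in both lines, holds 20 CpG dinucleotides and 48.8% G and C. Per length of exon HOXD9, and not HOXD8, was the leading HOXD gene in all 4 KM12 libraries. The HOXD8 window, of the gene without a count in LS174T, holds 28 CpG and 72.4% G and C, and the HOXA13 window 40 CpG and 78% G and C. The median over 35116 RefSeq promoter windows of the same length was 11 CpG and 58% G and C. Both strands were searched for TGACGTCA (the cAMP response element), TTTATNG (a CDX core), TGATNNAT (PBX with HOX), TATAAA and CCAAT. In HOXA9 the capitals mark TATAAA, which overlaps a TTTATNG match on the other strand at position -151, counted from the start, and CCAAT at -55. HOXD8 has a TTTATNG match at -92, and HOXA13 has CCAAT at -128. None of the 3 windows holds TGACGTCA or TGATNNAT in these letters. Over all windows TGACGTCA was found in 1.65%, TTTATNG in 8.93%, TGATNNAT in 6.47%, TATAAA in 10.72% and CCAAT in 32.01%.

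The second question, what changed between culture and xenograft, was asked over the 4 pairs of the same line and GNAS state. Of the 30 members tested 3 passed, HOXA4, HOXA10 and HOXA11, all higher in xenografts, against 26.1% of all genes tested, 12.6% higher and 13.5% lower. HOXA10, a posterior gene, rose in all 4 pairs, from 17 to 41.9 CPM in KM12 parental, from 17.8 to 27.3 in the knockout, from 16 to 39.1 in LS174T Dox (-) and from 18.2 to 47 in Dox (+), with each xenograft above each culture. The log2 difference was 1.14 ± 0.18 (adjusted p = 0.0139). HOXA11, its posterior neighbor, went from 7.08 to 19.6 CPM in KM12 parental, from 8.03 to 11.5 in the knockout, from 11.1 to 21.3 in LS174T Dox (-) and from 12.3 to 21 in Dox (+), a rise of 0.92 ± 0.22 (adjusted p = 0.032). The groups overlapped, as the LS174T Dox (+) culture lay above the KM12 knockout xenograft. HOXA4, an anterior gene of low level, went from 0.516 to 5.45 CPM in KM12 parental, from 0.527 to 1.31 in the knockout, from 0.123 to 0.936 in LS174T Dox (-) and from 0.0331 to 0.194 in Dox (+), a log2 difference of 2.50 ± 0.52 (adjusted p = 0.0245). In LS174T HOXA4 rests on few counts, and 47.3% of its exon length is shared with other annotated genes, as is 26.3% of HOXA10 and 31.1% of HOXA11.

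The 3 calls depended on single pairs. Without the LS174T Dox (-) pair the adjusted p was 0.083 for HOXA4, 0.0553 for HOXA10 and 0.101 for HOXA11, and without the Dox (+) pair 0.0795, 0.0668 and 0.107. HOXA11 also lost its call without the KM12 parental pair (adjusted p = 0.0708) or the knockout pair (0.0506). Just outside the threshold lay HOXA5 (log2 0.99 ± 0.29, adjusted p = 0.0531), HOXD4 (1.82 ± 0.51, 0.0573) and HOXB13 (1.18 ± 0.36, 0.0581). HOXA9 was lower in the xenograft in all 4 pairs, at 0.758 and 0.735 times its culture level in KM12 and 0.974 and 0.961 times in LS174T (log2 -0.24 ± 0.13, adjusted p = 0.224).

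The HOXC sum was lower in KM12 xenografts, at 0.527 times the culture level in parental cells (95% counting interval 0.474 to 0.586) and 0.421 times in the knockout (0.377 to 0.468), intervals that cover counting error only. HOXC6, HOXC10 and HOXC4 stood at 0.238, 0.228 and 0.527 times their culture levels in the knockout pair and at 0.553, 0.556 and 0.181 times in the parental pair. None of the 6 tested HOXC genes passed the environment test, with adjusted p from 0.128 for HOXC10 to 0.866 for HOXC8. The HOXD sum was level, at 0.993 (0.909 to 1.08) and 0.987 (0.907 to 1.08) times its culture level.

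The HOXB sum was higher in KM12 xenografts and lower in LS174T xenografts than in the matching cultures. In the KM12 parental pair its sum went from 35.9 to 248 CPM, 6.90 times the culture level (6.45 to 7.39), and in the knockout pair from 31.3 to 52.1 CPM, 1.67 times (1.53 to 1.82). In LS174T it went from 67.8 to 45.0 CPM in Dox (-), 0.663 times (0.616 to 0.713), and from 72 to 22.5 CPM in Dox (+), 0.312 times (0.282 to 0.346). As a share of HOX counts, HOXB made up 9.22% in the KM12 parental culture and 37.9% in its xenograft, but 39.1% and 17.4% in the LS174T Dox (-) culture and xenograft and 37.6% and 10.7% in the Dox (+) ones.

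**Figure D3:**
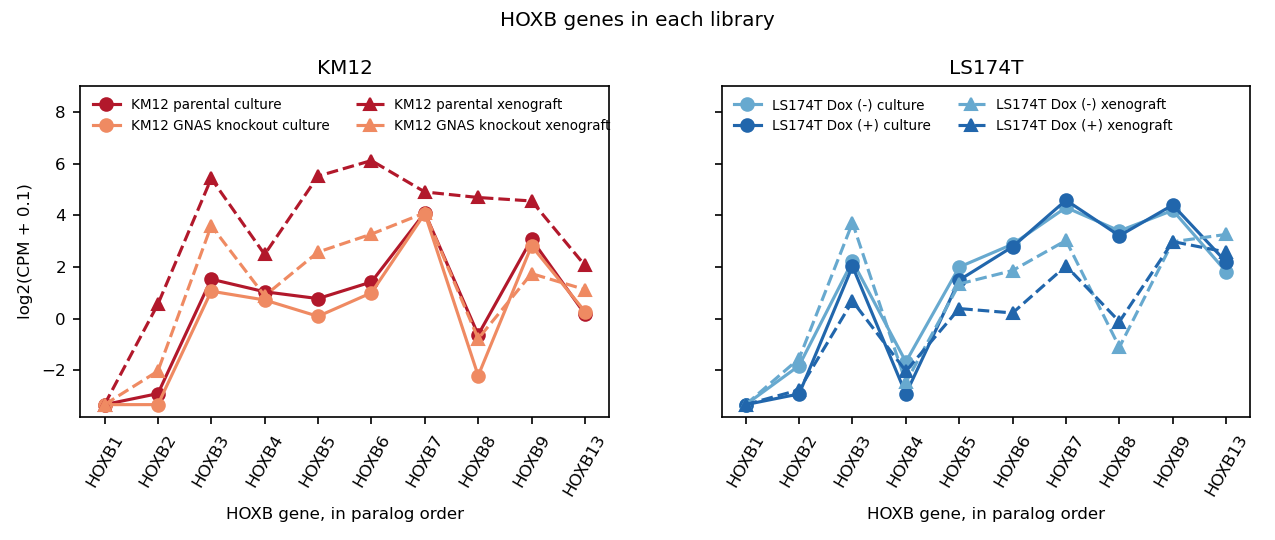
Levels of the 10 HOXB genes in paralog order (horizontal axis) as log2 of CPM plus 0.1 (vertical axis), in the 4 KM12 libraries (left) and the 4 LS174T libraries (right), with circles and solid lines for cultures and triangles and dashed lines for xenografts. The KM12 parental xenograft lies above the other KM12 libraries from HOXB2 to HOXB13, and in LS174T both xenografts lie below both cultures from HOXB5 to HOXB9.

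A test of the difference between lines in the environment effect, with the GNAS state kept as a term within each line and 2 residual degrees of freedom, was passed by 4 of the 30 members, 1 higher in LS174T and 3 lower, against 13.7% of all genes tested, 7.74% higher and 5.94% lower. The difference between xenograft and culture was lower in LS174T than in KM12 for HOXB5, HOXB7 and HOXB8 and higher for HOXA13. HOXB8, a central to posterior member, differed most. In KM12 it went from 0.55 to 25.7 CPM in parental cells, 46.7 times the culture level (28.4 to 82.4), and from 0.117 to 0.485 CPM in the knockout, 4.14 times (1.20 to 18.1). In LS174T it went from 10.4 to 0.366 CPM in Dox (-), 28.5-fold lower (14.8 to 62.9), and from 9.14 to 0.825 in Dox (+), 11.1-fold lower (6.80 to 19.3). Both LS174T cultures lay above both xenografts, and the difference between lines was -8.79 ± 1.10 on the log2 scale (adjusted p = 0.00634).

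HOXB5, a central member used in the developing gut and its nerves, went from 1.62 to 45.6 CPM in KM12 parental and from 0.967 to 5.87 in the knockout, against 3.9 to 2.44 in LS174T Dox (-) and 2.72 to 1.21 in Dox (+). Its ratios of xenograft to culture were 28.2 (21.0 to 38.8), 6.08 (4.11 to 9.22), 0.626 (0.453 to 0.858) and 0.446 (0.273 to 0.706), up in KM12 and down in LS174T (difference -4.67 ± 0.77, adjusted p = 0.013). HOXB7 went from 17 to 29.8 CPM in KM12 parental, from 16.7 to 17 in the knockout, from 19.6 to 8.06 in LS174T Dox (-) and from 23.9 to 4.03 in Dox (+). In the knockout pair the HOXB7 ratio was 1.02 (0.890 to 1.17), with 1.75 in parental cells and 0.410 and 0.169 in LS174T (difference -2.32 ± 0.49, adjusted p = 0.0268). HOXB7 and HOXB8 share no exon sequence with another gene, and HOXB5 shares 3.58%.

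HOXB6, the neighbor of HOXB5, had the same course but an adjusted p of 0.0524 (difference -5.33 ± 1.10). It went from 2.58 to 69.3 CPM in KM12 parental, 1.9 to 9.56 in the knockout, 7.27 to 3.54 in LS174T Dox (-) and 6.79 to 1.07 in Dox (+). HOXB6 passed with DESeq2 (adjusted p = 1.9e-08) and limma-voom (0.0165). Of its exon length 32.9% is shared with HOXB-AS3 and HOXB3. HOXB3 went from 2.79 to 42.8 CPM and 1.99 to 12 in KM12, from 4.57 to 13 in LS174T Dox (-) and from 3.98 to 1.5 in Dox (+), so that its LS174T pairs went opposite ways (difference -3.08 ± 1.18, adjusted p = 0.178). HOXB9, a posterior member, went from 8.32 to 23.4 CPM in KM12 parental, 6.94 to 3.25 in the knockout, 18.2 to 7.77 in LS174T Dox (-) and 21 to 7.81 in Dox (+), higher in the xenograft in the KM12 parental pair alone (adjusted p = 0.319 for the difference). HOXB4 was at 1.96, 1.55, 5.5 and 1.75 CPM in the KM12 cultures and xenografts and at 0.215, 0.0331, 0.0814 and 0.145 in LS174T. HOXB2 reached 1.38 CPM in the KM12 parental xenograft and at most 0.244 CPM elsewhere, and HOXB1 was not counted.

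HOXA13, the hindgut gene, had the opposite sign. In LS174T it went from 18.3 to 85.6 CPM in Dox (-), 4.68 times (4.27 to 5.13), and from 21.2 to 50.7 in Dox (+), 2.40 times (2.17 to 2.65). In KM12 it went from 48.4 to 64.5 CPM in parental cells, 1.33 times (1.23 to 1.44), and from 49.1 to 41.6 in the knockout, 0.847 times (0.779 to 0.920). The difference between lines was 1.66 ± 0.38 (adjusted p = 0.0371).

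The calls for a difference between lines depended on the LS174T libraries. With any 1 LS174T library left out, no member passed, and adjusted p ranged from 0.0766 to 0.112 for HOXB8, 0.136 to 0.159 for HOXB5, 0.0817 to 0.139 for HOXB7 and 0.0681 to 0.216 for HOXA13. With 1 KM12 library left out, the spread of the difference comes from the LS174T libraries alone, so calls there are no check on these. Members without counts in LS174T, such as HOXC10, HOXC11, HOXC13, HOXD1 and HOXD8, could not be fitted for this difference.

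**Figure D4:**
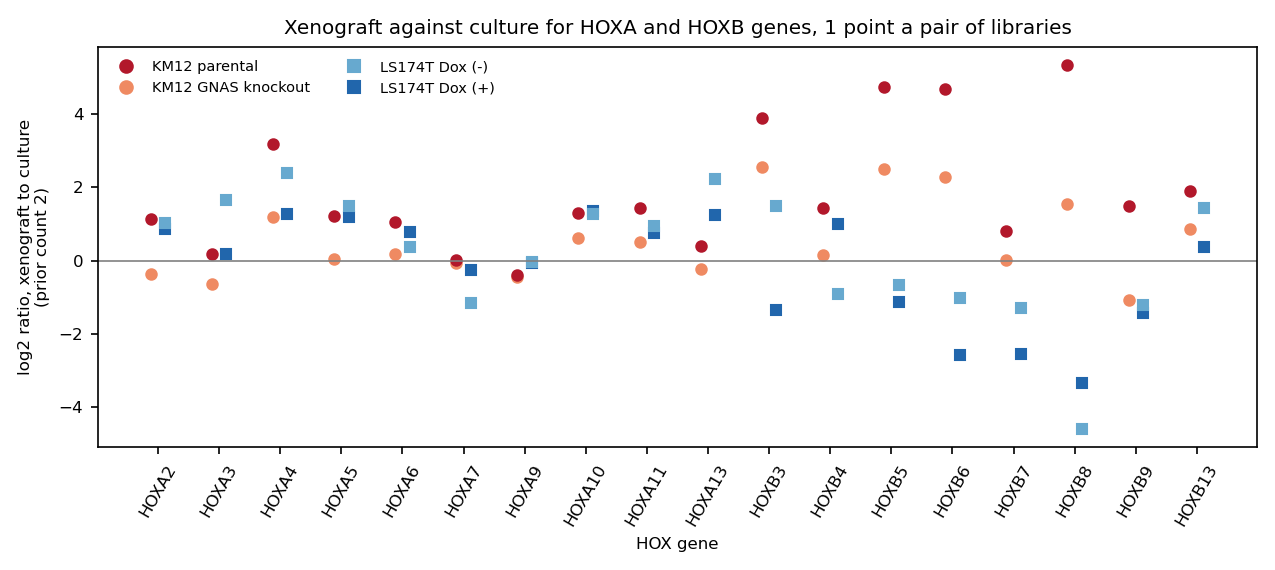
Log2 ratio of the xenograft to the culture (vertical axis, with a prior count of 2) for the HOXA genes from HOXA2 on and the HOXB genes from HOXB3 on (horizontal axis), 1 point per pair of libraries, circles for KM12 and squares for LS174T. HOXB5, HOXB6 and HOXB8 points of KM12 lie above 0 and those of LS174T below it, and the 4 points of HOXA10 and of HOXA11 all lie above 0.

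The KM12 parental xenograft stood apart among the KM12 libraries. It had the highest level of the 8 libraries for 18 of the 39 members and 16 of the 30 tested, a place it takes in 15.4% of all tested genes. Of the 18, 8 were HOXB genes, 6 HOXA, 2 HOXC and 2 HOXD. Its sum of fibroblast markers, 264 CPM, consisted mostly of COL3A1 at 220 CPM, COL1A1 at 29.2 and LUM at 10.03, whereas DCN was at 0.229 CPM and PDGFRA, FAP and POSTN were at 0. Endothelial markers summed to at most 1.83 CPM in any library. Of these, CDH5 was at 0.803 and 1.02 CPM in KM12 xenografts, 0.448 and 0.679 in LS174T xenografts and at most 0.0293 in cultures. PECAM1 was at 0.516 and 0.388 CPM in KM12 xenografts, but in LS174T at 0.276 and 0.563 in cultures and 0 and 0.0485 in xenografts. The CDX1 level, an intestinal regulator of HOX genes, was 10.9 CPM in this library and 73.9 to 96.9 CPM in the other 3 KM12 libraries. Of the colorectal epithelium markers, LGALS4 was at 78.3 CPM here and 302 to 775 CPM in those 3. CDH17 was at 48.6 CPM here and 209 to 331 CPM in those 3. EPCAM (572 CPM here, 518 to 611 in those 3) and KRT18 (1887 CPM here, 1470 to 1980 in those 3) lay within their range. The labels name mouse as an organism of the xenografts, and how mouse reads were treated is not given in the sources used here. In the knockout xenograft, 7 of 8 tested HOXB genes were higher than in the knockout culture (median log2 ratio 1.21 beside -0.01 over all tested genes). Fibroblast markers summed to 12.8 CPM in that xenograft and 10.4 in that culture, which does not measure host reads. The part of these markers or of host reads in the HOXB values was not tested in either pair.

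The third question, the effect of the GNAS state, was asked over the 4 pairs of parental with knockout and Dox (+) with Dox (-). Taking parental and Dox (+) as 1 state, and knockout and Dox (-) as the other, is the same assumption as in the comparison of lines. No HOX gene passed with edgeR, and no gene of the 16070 did (0.00%). At an unadjusted p below 0.05 there were 2 of 30 members, HOXA2 (log2 0.88 ± 0.38) and HOXA5 (0.50 ± 0.21), and 6.08% of all genes, and the smallest adjusted p of a member was 0.776. DESeq2 and limma-voom also called no member, while DESeq2 called 53 genes in all. HOXA5 was level between states in KM12 culture (0.954 times, 0.859 to 1.06) and 2.17 times as high in the parental as in the knockout xenograft (1.95 to 2.43). In LS174T, Dox (+) stood at 1.57 times the Dox (-) level of HOXA5 in culture (1.00 to 2.49) and at 1.25 times in xenografts (0.908 to 1.73). In LS174T an effect of Dox itself and one of GNAS cannot be told apart.

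Within single pairs, cultures of the same line were close. Over the 30 tested members the median log2 ratio was 0.05 for parental against knockout KM12 cultures and 0.07 for Dox (+) against Dox (-) LS174T cultures. In KM12 xenografts 25 of the 30 were higher in the parental, with a median of 0.78 beside 0.02 over all tested genes, and all 8 tested HOXB genes were, with a median of 2.32. HOXB8 was 52.9 times as high (28.5 to 111), HOXB5 7.77 times (6.41 to 9.49), HOXB6 7.25 times (6.23 to 8.47) and HOXB9 7.19 times (5.54 to 9.46). The HOXB8 counts behind this were few in the knockout, and in KM12 cultures its ratio was 4.70 (1.52 to 19.3). In LS174T xenografts the HOXB sum was lower in Dox (+), at 0.501 times (0.448 to 0.558), with HOXB3 at 0.116 times (0.0774 to 0.168) and HOXB6 at 0.301 times (0.180 to 0.486). HOXB8 was at 2.25 times (0.949 to 5.73) there, an interval that includes no difference. These are ratios of 1 library to 1, with no replicate check.

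A difference between lines in the GNAS effect was called for no member with edgeR, and for 1 gene of all (0.00622%), with an unadjusted p below 0.05 for 3 of 30 members, HOXA4 (log2 -3.26 ± 1.07), HOXB5 (-2.74 ± 0.76) and HOXB8 (-4.51 ± 1.07), and for 4.03% of all genes. DESeq2 called no member and 5 genes. Calls without the KM12 parental culture or without the KM12 knockout culture rest on the spread of the LS174T libraries alone.

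The partners and regulators of HOX proteins, from lists chosen with earlier results of these data known, are described by their counts. Over all tested genes 16.7% were higher and 14.8% lower in LS174T, and 12.6% were higher and 13.5% lower in xenografts. Of 7 cofactors tested, 2 were higher and 3 lower in LS174T, with a median log2 difference of -0.89 beside -0.02 over all tested genes. MEIS2, which binds DNA beside HOX proteins, was at 24.7 to 32.8 CPM in KM12 and at most 0.0307 CPM in LS174T (adjusted p = 0.000354), and PBX3 at 7.97 to 10.7 against 0.133 to 1.22 CPM (log2 -4.42 ± 0.56, adjusted p = 0.00428). MEIS1 was lower in LS174T (-0.95 ± 0.27, adjusted p = 0.0474) and higher in xenografts (1.35 ± 0.28, adjusted p = 0.0248).

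Of 15 Polycomb genes, 2 were higher and 2 lower in LS174T (median -0.04). PHC1, a subunit of Polycomb repressive complex 1, was at 13.3 to 24 CPM in KM12 and 0.53 to 1.70 in LS174T (log2 -4.23 ± 0.29, adjusted p = 0.000727), while JARID2 (1.49 ± 0.23) and CBX8 (1.10 ± 0.19) were higher in LS174T. Of 15 trithorax-side genes, 5 were lower and none higher in LS174T, and likewise 5 lower and none higher in xenografts. The shares called lower over all tested genes were 14.8% in LS174T and 13.5% in xenografts. The H3K27 demethylase gene KDM6A was at 32.2 to 52.2 CPM in KM12 and 10.8 to 21.3 in LS174T (-1.60 ± 0.26, adjusted p = 0.00881). Of 10 retinoic acid genes, 3 were higher and 1 lower in LS174T, and 3 were lower in xenografts. CYP26B1, which degrades retinoic acid, was at 9.92 CPM in the KM12 parental xenograft, at 0.583 to 1.51 CPM in the other KM12 libraries and at most 0.0614 CPM in LS174T. ALDH1A3, which makes retinoic acid, fell in xenografts by 4.59 ± 0.58 on the log2 scale (adjusted p = 0.0105). Of 6 CDX and hindgut genes tested, 3 were higher and 2 lower in LS174T. CDX1 was higher in LS174T by 2.07 ± 0.58 and CDX2, a master regulator of the intestine, by 1.88 ± 0.31 on the log2 scale (adjusted p = 0.0435 and 0.00881), with CDX2 at 34.3 to 56.6 CPM in KM12 and 115 to 249.8 CPM in LS174T. GNAS state called no gene of these lists with edgeR.

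MTX2 and LNPK, which flank the HOXD cluster, and SMUG1 and CALCOCO1, which flank HOXC, had counts in every LS174T library. MTX2, next to the HOXD cluster, was at 39.7 to 51.9 CPM in KM12 and 31.6 to 37.9 in LS174T (log2 -0.46 ± 0.11, adjusted p = 0.0277), and LNPK at 44.3 to 53.4 and 29.98 to 70.8 CPM (-0.05 ± 0.28, adjusted p = 0.917). Next to HOXC, SMUG1 was at 14.9 to 27.1 CPM in KM12 and 11.3 to 22.1 in LS174T (adjusted p = 0.297), and CALCOCO1 was higher in LS174T (1.28 ± 0.19, adjusted p = 0.00701). EVX2, directly beyond HOXD13, was at most at 0.0586 CPM, and EVX1, beyond HOXA13, at 0.825 to 2.52 CPM in KM12 and 0.184 to 0.63 in LS174T (adjusted p = 0.0579).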

How the data were processed

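RNA was measured in 8 libraries, 1 per group, of established human colorectal cancer lines. Per the labels' protocols, poly(A) RNA was selected on oligo(dT) beads and primed with random hexamers, with no step that marks the strand. The authors deposited 1 table of raw counts per human gene for each library, the only unit used. Per the submitters' processing notes, STAR 2.7.2b and HTSeq 0.11.0 were used with the builds hg38 and GRCm39. The annotation release, the strand setting and the treatment of mouse reads are not given in the sources used here, and 0 identifiers in the table are not human. Reads of close paralogs, overlapping genes and antisense genes, and mouse reads that align to human genes, can therefore enter these counts.

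Identifiers were matched by their stable part to GENCODE release 29 on GRCh38, which named 56753 of 60483 genes (93.8%). Its release differs from that of the table, so exon lengths may differ slightly. Libraries held 15924846 to 37735085 counts, and counting error is small except where few counts are stated.

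Genes with at least 1 CPM (before scaling) in at least 2 libraries were tested with edgeR 4.0.16 (R 4.3.3) by robust quasi-likelihood F tests with TMM factors of 0.904 to 1.107, Benjamini-Hochberg adjusted over all 16070 genes, with a threshold of 0.05. A ± value is the SE, obtained from the log2 difference and its F value. Line, environment and GNAS effects used 4 pairs as a block. Differences between lines used terms for line, environment within line and GNAS state within line. The pairs match conditions and not cultures or animals. Ratios of 1 library to another carry exact 95% counting intervals, which cover counting error only, and PCR copies are not independent molecules. Against 0 counts a floor of 3 counts per library was used. Tests were checked on simulated data. Alternatives used DESeq2 1.42.0, limma 3.58.1 (voom), other size factors and filters, no block, single lines or environments, and left-out pairs or libraries.

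Members and lists were chosen with earlier results of these data known. Named with all 8 values were members reaching 5 CPM. Full statistics go to members past a test, or to the 10 with the largest difference where more than 10 passed, and up to 4 genes of each other list are named by the size of their line difference. ALDH1A3, LNPK, SMUG1 and EVX2 and the marker genes are named outside that rule after their values were seen. Values of 1 member and of 1 gene of the other lists are not reported here, although counts and sums include them.

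Promoters came from RefSeq (GRCh38.p14), which lists 20 of the 39 members. HOXB5, HOXB6, HOXB7, HOXB8 and HOXC6 were also chosen by the rule for promoters.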

Additional observations from a re-analysis of the deposited data

Results flagged for a closer look

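The effect of the xenograft relative to culture differed between LS174T and KM12, by a test of that difference with edgeR, for 4 of the 30 HOX genes tested. That is 13.3% of the members, near the 13.7% of all genes tested. The calls depended on the LS174T libraries. HOXB8 had a log2 difference between lines of -8.79, HOXB5 of -4.67 and HOXB7 of -2.32, each a lower xenograft effect in LS174T. HOXA13 had a difference of 1.66, a higher xenograft effect in LS174T. For HOXB8 and HOXB5 both KM12 pairs were higher in the xenograft and both LS174T pairs lower. For HOXB7 the KM12 knockout pair was level within counting error. For HOXA13 both LS174T pairs were higher in the xenograft, and the KM12 pairs went opposite ways.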

How the results depend on the processing

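The number of HOX genes called for line (20) was 17 to 27 under all alternatives, 27 with the cultures alone, and 17 to 19 with 1 pair left out. With the cultures alone 8 of the 27 were higher in LS174T and 19 lower, where 10187 of 14251 genes were called. With the xenografts alone 0 were higher and 17 lower, where 3751 of 15533 genes were called. Of the 20 genes, 17 passed under each alternative in which they were tested, and HOXC8, among the 17, fell below the filter in several. HOXA3 and HOXB13 lost their calls with the xenograft pairs alone. For environment (3 called) DESeq2 gave 7, limma-voom 6, the fit without the replicate block 6 and the LS174T pairs alone 10, and leaving out 1 pair gave 0 to 2. None of the 3 genes passed under every alternative. The pairs of the replicate block match condition only, as the labels carry no replicate numbers. For the difference between lines in the environment effect (4 called) no filter on low counts gave 8, and leaving out 1 library gave 0 to 6. For GNAS state the count was 0 under every alternative, and for its difference between lines it was 3 without a filter and 0 to 5 with 1 library left out. Over all genes tested, 5069 were called for line (2726 to 10187 under the alternatives), 4189 for environment (11 without the LS174T Dox (+) pair to 8402), 2198 for the difference between lines in the environment effect (1 to 3428), 0 for GNAS state (0 to 281) and 1 for its difference between lines (0 to 761). For line, environment and the difference between lines in the environment effect, no difference of a called gene changed sign. Signs of genes that were not called were not counted. Of the values of called genes, 223 of 235 for line, 22 of 32 for environment and 38 of 55 for the difference between lines stayed past the threshold. Where 1 library of a line is left out, the spread of the difference between lines comes from the other line alone. With 1 library per group, spread within a group is not measured, and members with under 10 counts in LS174T limit what can be seen there to the stated floors.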

Other observations

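Noncoding genes within the clusters, chosen after their values were seen, followed the coding neighbors in several cases, and none of these is a test. HAGLR, antisense to HOXD1, was at 43.8 and 41.1 CPM in KM12 cultures, 25.3 and 22.6 in KM12 xenografts and 0.097 to 0.651 CPM in LS174T. HOXD-AS2 was at 3.2 to 4.93 CPM in KM12 and had no count in LS174T. HOTAIR, transcribed from the HOXC cluster against the direction of its HOX genes, was at 0.971 to 2.26 CPM in KM12, with 1 LS174T library above 0, at 0.0407 CPM. HOXB-AS3, which overlaps HOXB5 and HOXB6, was at 0.206 and 0.234 CPM in KM12 cultures, 25.3 and 4.03 in KM12 xenografts, 1.81 and 1.19 in LS174T cultures and 1.79 and 0 in LS174T xenografts. HOXA11-AS, toward the posterior end of the HOXA cluster, was at 11.97 to 21.3 CPM in KM12 and 15.97 to 29.7 CPM in LS174T. Because the kit did not mark the strand, reads of these genes and of the HOX genes they overlap cannot be told apart.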
